A study of Mus musculus with 12 samples.

Results

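The NR4A receptors Nr4a1, Nr4a2 and Nr4a3, the EGR zinc finger factors Egr1, Egr2 and Egr3, and the AP-1 subunits Fos, Fosl2, Jun and Junb were followed as 10 early genes, chosen by name, among the 41457 genes listed for each of 12 libraries of splenic regulatory T cells (Treg). By the labels, Treg were sorted as RFP+CD4+ T cells and then cultured overnight with 5 U/mL IL-2 (unstimulated) or with the same IL-2 plus agonistic antibodies to CD3 at 1 μg/mL and to CD28 at 2 μg/mL (stimulated). CD18Foxp3 Treg came from mice with floxed CD18 (Itgb2, the shared chain of the β2-integrins) and Cre driven by Foxp3, which deletes CD18 in Treg, and CD18wt Treg from littermates with the same Foxp3Cre and unfloxed CD18. All mice carried an RFP reporter that marks cells by Cre activity, so the sort also takes cells that had Cre earlier. Mice were matched for age and sex, and their ages are not given in the sources used here. The study reports that CD18Foxp3 mice develop spontaneous inflammation of the skin and internal organs. Whether the mice used for these libraries had signs of it is not stated. Loss of CD18 in the Treg and the state of the mice thus cannot be told apart in a comparison of genotypes. Each of the 4 groups held 3 libraries. The methods of the study name lysis right after the sort and before the culture, so the order of these steps is not certain. The questions were how these genes respond to T cell receptor stimulation in culture, and whether loss of CD18 alters their level or their response.

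Early genes are transcribed within minutes of receptor signaling from factors already present in the cell, and many of their mRNAs are short-lived. NR4A receptors are orphan nuclear receptors that act without a known ligand in T cells, are induced through calcium and calcineurin, and take part in Treg development and in keeping Foxp3 expressed. EGR factors are zinc finger proteins induced downstream of MAP kinases, of which Egr2 and Egr3 restrain T cell activation. AP-1 is a dimer of a FOS and a JUN protein or of 2 JUN proteins, and it pairs with NFAT at cytokine genes.

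The libraries held 10665174 to 19005482 exon reads, of which the 10 early genes together took 0.0676% to 0.62%. Among the identity markers, Foxp3, Cd3e and Cd4 were present in every library, while Trac was listed at 0 in all 12. Itgb2 was at 387 to 465 TPM (reads per length of gene, scaled to the same total in each library) in unstimulated CD18wt and at 229 to 257 TPM in unstimulated CD18Foxp3 Treg, so reads of the targeted gene were lower but remained. Summed over 6 B cell markers the level was 22.9 to 30.8 TPM in unstimulated and 9.06 to 19.9 TPM in stimulated libraries, and 8 myeloid markers summed to 116 to 205 TPM in all libraries. The sum of 5 plasma cell markers, which include Xbp1 and Prdm1, was 69.8 to 88.5 TPM in unstimulated and 145 to 204 TPM in stimulated libraries, that of 6 cytotoxic lymphocyte markers lay at 77.1 to 147 TPM with Ncr1 at 0 throughout, and 5 erythroid markers ranged from 0.234 to 58.1 TPM. The part of these other cells in the results was not tested. In bulk RNA, fewer cells of a type and less RNA per cell cannot be told apart.

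CD18wt unstimulated replicate 3 stood apart from the other 5 unstimulated libraries. Fos, Jun and Junb together took 0.0358% of its exon reads, against 0.311% to 0.57% in the others. It had the fewest reads, 10665174, and the smallest share of intron reads of the 12 libraries, at 3.32%. Of 20 other immediate early genes with a mean of at least 5 TPM, 19 were lower in it than in all 5 others, against 40.8% of 8716 genes at that level. None of 9 heat shock genes was lower and 5 were higher than in all 5 others, where 1579 of the 8716 genes were higher. Each result that rests on this library is therefore given with and without it.

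Promoters of 4 early genes are shown because Fos and Junb were lower and Nr4a1 and Egr2 higher in stimulated CD18Foxp3 Treg. Each line gives the 150 bases before a RefSeq start site of GRCm38.p6, read 5′ to 3′ on the strand of the gene, with capitals for the letters TGACG on either strand (the shared part of sites for CREB and ATF factors) and for the CArG box (the site of SRF). The stretches are chr12:85473740-85473889 (forward strand) for Fos, chr8:84978749-84978898 (reverse strand) for Junb, chr15:101266696-101266845 (forward strand) for Nr4a1 and chr10:67537719-67537868 (forward strand) for Egr2. None overlapped a GENCODE exon, and those of Nr4a1 and Egr2 lay inside the span of the gene in the files, upstream of an internal start.
Fos: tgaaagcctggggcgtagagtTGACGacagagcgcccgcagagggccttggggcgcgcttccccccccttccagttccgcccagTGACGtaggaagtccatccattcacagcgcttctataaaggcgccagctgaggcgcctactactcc
Junb: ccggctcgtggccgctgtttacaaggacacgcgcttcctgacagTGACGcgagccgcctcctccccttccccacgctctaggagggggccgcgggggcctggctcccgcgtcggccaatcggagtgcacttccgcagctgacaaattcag
Nr4a1: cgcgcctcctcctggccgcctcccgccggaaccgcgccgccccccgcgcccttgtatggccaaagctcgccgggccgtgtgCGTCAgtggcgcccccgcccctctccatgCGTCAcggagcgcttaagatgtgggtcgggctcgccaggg
Egr2: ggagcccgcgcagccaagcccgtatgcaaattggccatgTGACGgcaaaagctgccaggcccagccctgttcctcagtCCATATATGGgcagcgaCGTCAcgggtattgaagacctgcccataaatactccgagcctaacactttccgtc

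RefSeq windows of 250 bases before to 50 after the start were found for 8 of the early genes, among them 5 windows for Egr2, of which 1 of the 3 that hold both kinds of letters is shown. TGACG was present in windows of 6 of the 8 (Nr4a1, Nr4a2, Nr4a3, Egr2, Fos and Junb), against 20.8% of all 32851 windows of this length. The shares here are per window, whereas a gene counted with any of its windows, and Egr2 had 5. The letters lay 129 and 66 bases before the start of Fos, 106 before that of Junb, and 233, 213, 69 and 40 before that of Nr4a1, of which the last 2 are in the stretch shown. The CArG box was found in windows of Egr2 only, against 1.63% of all windows, and the EGR site GCGGGGGCG in those of Nr4a1 and Fosl2, against 2.91%. Neither the full site TGACGTCA, which contains TGACG and stood in 1.79% of all windows, nor the AP-1 site TGANTCA, in 7.81%, was found in any of the 8. The same letters thus stood before genes that rose and before genes that fell in culture.

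Levels of the early genes differed widely among themselves. In unstimulated CD18Foxp3 Treg the order in TPM was Junb at 2512 ± 159 (SD, n = 3), Fos at 689 ± 306, Jun at 502 ± 74.9, Nr4a1 at 127 ± 20.4, Egr1 at 97.6 ± 5.43, Egr2 at 37.8 ± 3.14, Egr3 at 26.0 ± 1.27, Nr4a3 at 15.3 ± 0.637, Nr4a2 at 5.29 ± 2.29 and Fosl2 at 3.48 ± 0.184. Neighbors in this order had libraries that did not overlap, except Fos and Jun. In stimulated CD18Foxp3 Treg the order was Junb at 557 ± 276, Nr4a1 at 301 ± 26.3, Nr4a3 at 163 ± 31.9, Egr1 at 146 ± 6.14, Egr2 at 112 ± 3.59, Egr3 at 54.6 ± 6.76, Jun at 44.1 ± 14.8, Fosl2 at 32.1 ± 3.76, Nr4a2 at 28.7 ± 4.65 and Fos at 12.3 ± 3.08. Fos thus went from the place below Junb to the last, and Fosl2 and Nr4a3 moved up. Of these stimulated neighbors, Junb and Nr4a1, Nr4a3 and Egr1, Egr3 and Jun, Jun and Fosl2, and Fosl2 and Nr4a2 overlapped between libraries.

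**Figure D1:**
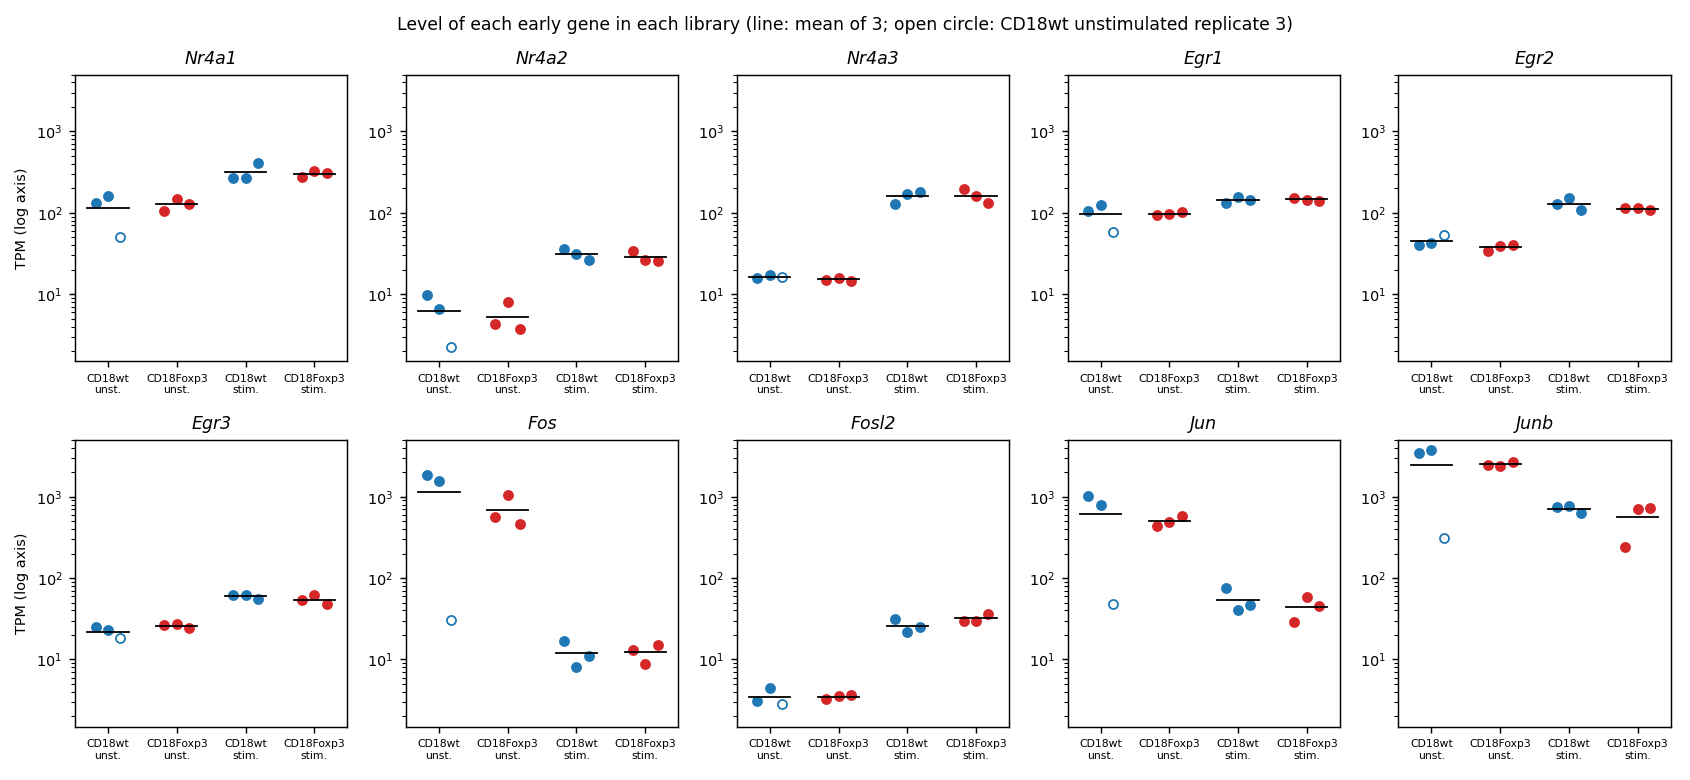
TPM of the 10 early genes on a log axis (vertical) in each library of the 4 groups (horizontal; unst., unstimulated; stim., stimulated), with lines at the mean of 3 libraries. Nr4a2, Nr4a3 and Fosl2 lie higher in all stimulated libraries, Fos lies below 20 TPM in all of them, and CD18wt unstimulated replicate 3 (open circle) lies at 30.3 TPM for Fos against 466 to 1844 TPM in the other unstimulated libraries.

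In CD18Foxp3 Treg, 9 of the 10 early genes changed on stimulation (edgeR, fold change of at least 1.5 and adjusted p of at most 0.01), 6 of them higher and 3 lower. All 3 NR4A receptors, Egr2, Egr3 and Fosl2 rose, and Fos, Jun and Junb fell. Rises and falls here compare levels after overnight culture with those of parallel cultures in IL-2 alone. Earlier times were not sampled, so the early response of these genes to stimulation is not shown. Stimulation changed much of the transcriptome: 38.6% of the 12019 genes tested passed, 20.9% higher and 17.6% lower. In CD18wt Treg, 5 of 10 passed, all higher (Nr4a2, Nr4a3, Egr2, Egr3 and Fosl2), where 33.6% of 11930 genes passed, 18.7% higher and 14.9% lower. Without CD18wt unstimulated replicate 3, the CD18wt count was 9 of 10, with Nr4a1 added among the rises and Fos, Jun and Junb as falls, against 31.1% of 12345 genes, 17.7% higher and 13.5% lower. The TPM of stimulated and unstimulated libraries did not overlap for 8 early genes in CD18wt and for all 10 in CD18Foxp3 Treg, beside 62.0% and 67.1% of the genes tested. The median log2 fold change over the 10 was 1.07 in CD18wt and 0.79 in CD18Foxp3 Treg, against 0.02 and 0.01 over all genes tested, and it mixes large changes of opposite direction. These are fold changes after TMM scaling. On the TPM scale the median change over all genes tested was 0.36 (CD18wt) and 0.31 (CD18Foxp3) on log2(TPM + 1). TPM ratios of rising genes are thus larger than the fold changes.

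Among the NR4A receptors, Nr4a3 (NOR1; chr4:48045153-48086447, forward strand, GRCm38 as for all genes) changed most. It was at 15.6, 17.4 and 16.5 TPM in unstimulated CD18wt libraries and at 129, 171 and 181 TPM in stimulated ones. In CD18Foxp3 Treg it went from 15.1, 16.0 and 14.7 TPM to 195, 163 and 131 TPM. The unstimulated libraries were tightly grouped, CD18wt replicate 3 among them, and all stimulated libraries were higher. The log2 fold change was 2.88 ± 0.17 (SE; adjusted p = 1.04e-07 by edgeR) in CD18wt and 3.05 ± 0.17 (adjusted p = 2.29e-06) in CD18Foxp3 Treg.

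Nr4a2 (NURR1; chr2:57106830-57124003, reverse strand) was the least abundant of the 3 receptors. Its TPM were 9.79, 6.62 and 2.25 in unstimulated and 36.2, 31.6 and 26.0 in stimulated CD18wt libraries. In CD18Foxp3 Treg they were 4.28, 7.91 and 3.68 without and 34.1, 26.2 and 25.8 with stimulation. Stimulated libraries were higher throughout, and the lowest value of all was again CD18wt unstimulated replicate 3. Nr4a2 rose by a log2 fold change of 1.93 ± 0.43 in CD18wt (adjusted p = 0.00713) and 2.08 ± 0.29 in CD18Foxp3 Treg (adjusted p = 0.000287). In CD18wt the adjusted p was 0.000161 without unstimulated replicate 3 and between 0.0165 and 0.0368 without unstimulated replicate 2 or any of the 3 stimulated libraries, so that 4 libraries each decided this call at 0.01.

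Nr4a1 (NUR77; chr15:101254269-101274795, forward strand), whose reporter is widely used to read T cell receptor signal strength, was the most abundant receptor in each group. Its TPM were 132, 161 and 50.7 in unstimulated and 266, 269 and 411 in stimulated CD18wt libraries. CD18Foxp3 libraries held 106, 146 and 128 TPM without and 273, 325 and 304 TPM with stimulation. No stimulated library overlapped an unstimulated one. The log2 fold change of 0.88 ± 0.14 in CD18Foxp3 Treg passed (adjusted p = 0.000503), and 1.07 ± 0.40 in CD18wt did not (adjusted p = 0.0709) until unstimulated replicate 3 was left out (0.73 ± 0.18, adjusted p = 0.00638). The share of Nr4a1 in the summed TPM of the 3 receptors went from 86.0% ± 1.49 (SD, n = 3) to 61.2% ± 6.06 in CD18Foxp3 Treg, and that of Nr4a3 from 10.5% ± 1.43 to 33.0% ± 5.32.

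Intron reads of Nr4a1 and Nr4a2 did not follow their exon reads. In CD18Foxp3 Treg, Nr4a1 had 697, 588 and 656 intron reads without and 242, 386 and 316 with stimulation, while its exon reads were 2641 to 2957 without and 5466 to 6339 with stimulation. Its intron RPM (intron reads scaled to the exon reads of the library) was 38.0 ± 1.14 (SD, n = 3) unstimulated and 18.4 ± 5.02 stimulated, and the groups did not overlap. With 3 against 3 libraries the exact permutation test, two-sided, cannot go below its p of 0.1 here. Introns made up 16.6% to 20.9% of its gene reads in unstimulated and 3.84% to 5.74% in stimulated CD18Foxp3 libraries. In CD18wt Treg, 768, 770 and 27 unstimulated and 163, 183 and 547 stimulated intron reads overlapped (exact permutation test p = 0.5), with replicate 3 the lowest unstimulated and the highest stimulated library. For Nr4a2, introns held 40.3% to 53.4% of the gene reads of unstimulated and 6.12% to 14.8% of those of stimulated libraries. Such a share also falls when exon reads alone rise. The intron RPM of Nr4a2 overlapped between cultures in both genotypes. It was 9.60 ± 7.24 unstimulated and 4.85 ± 1.76 stimulated in CD18wt Treg (exact permutation test p = 0.4). In CD18Foxp3 Treg it was 7.38 ± 4.09 and 4.10 ± 0.79 (exact permutation test p = 0.2). Nr4a3 had more intron reads with stimulation, with an intron RPM of 4.37 ± 1.26 unstimulated and 16.8 ± 3.28 stimulated in CD18Foxp3 Treg (exact permutation test p = 0.1), as it had more exon reads. Strand was not stated for the counting, so reads of antisense or overlapping transcripts cannot be told apart.

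**Figure D2:**
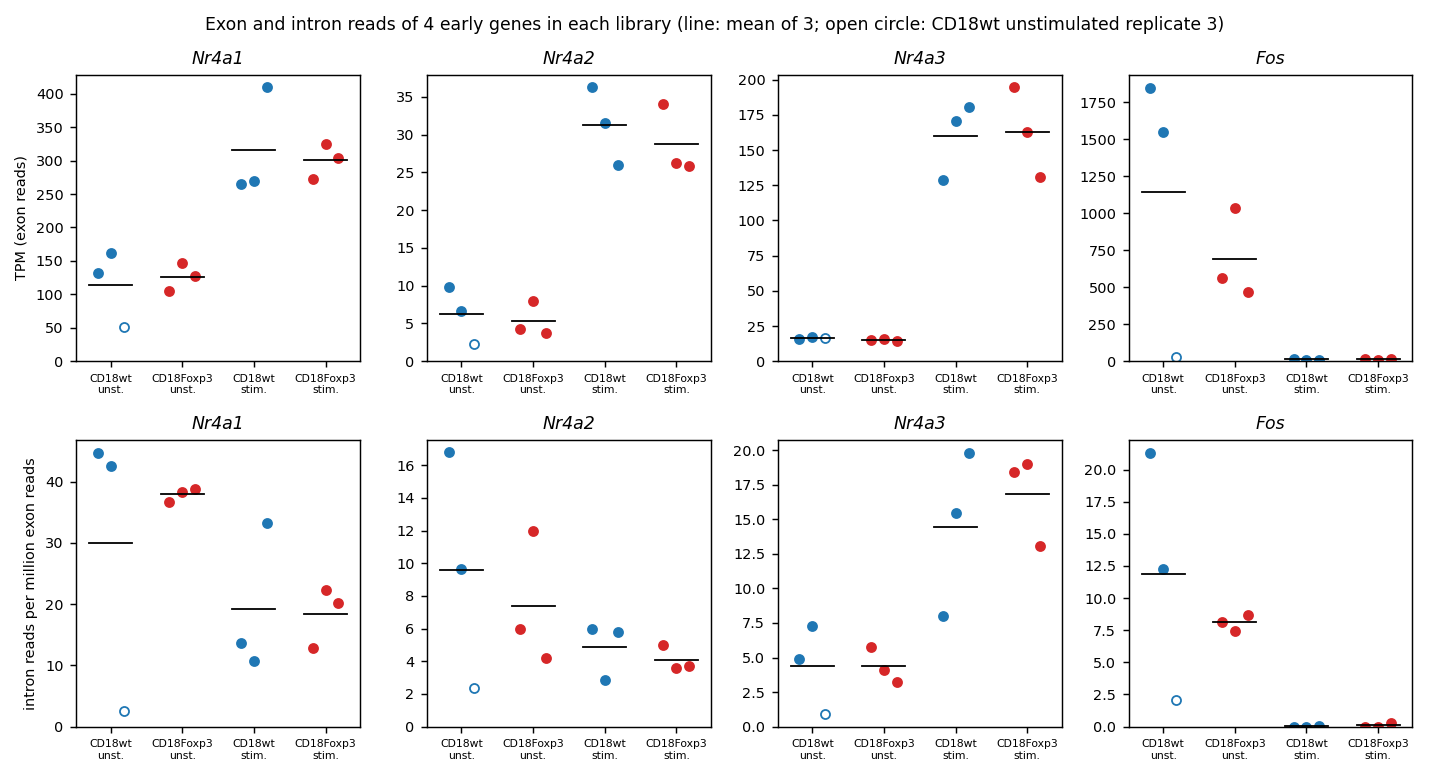
Exon level in TPM (top row, vertical axis) and intron RPM (bottom row) of Nr4a1, Nr4a2, Nr4a3 and Fos in each library of the 4 groups, with lines at the mean of 3. In CD18Foxp3 Treg, stimulated libraries lie higher than unstimulated ones for Nr4a1 in exon level but lower in intron RPM (means of 18.4 against 38.0), higher for Nr4a3 in both and lower for Fos in both. The open circle is CD18wt unstimulated replicate 3.

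Of the EGR factors, Egr2 and Egr3 rose and Egr1 did not pass. Egr2 (chr10:67535475-67542188, forward strand), which with Egr3 limits T cell activation, was at 40.6, 42.1 and 54.0 TPM in unstimulated and 128, 152 and 109 TPM in stimulated CD18wt libraries. The CD18Foxp3 values were 34.2, 39.1 and 40.1 TPM without and 114, 114 and 108 TPM with stimulation. CD18wt unstimulated replicate 3 was the highest unstimulated library for Egr2, unlike for the other 9 genes, where it was the lowest of its group or, for Nr4a3, in the middle. Egr2 rose by a log2 fold change of 1.12 ± 0.19 in CD18wt (adjusted p = 0.000445) and 1.21 ± 0.11 in CD18Foxp3 Treg (adjusted p = 2.25e-05).

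Egr3 (chr14:70077203-70082614, forward strand) went from 24.9, 22.8 and 18.2 TPM to 62.0, 62.8 and 55.9 TPM in CD18wt Treg. It went from 26.4, 27.0 and 24.6 TPM to 53.2, 61.9 and 48.6 TPM in CD18Foxp3 Treg. All stimulated libraries were higher, with log2 fold changes of 1.06 ± 0.15 (adjusted p = 6.02e-05) and 0.70 ± 0.12 (adjusted p = 0.00103). No promoter window of Egr3 was matched.

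Egr1, the EGR factor most used as a marker of acute MAP kinase signaling, was at 105, 126 and 57.3 TPM in unstimulated and 132, 156 and 145 TPM in stimulated CD18wt libraries. In CD18Foxp3 Treg it was at 93.1, 96.0 and 104 TPM without and 153, 144 and 142 TPM with stimulation. The TPM of stimulated libraries were higher throughout, by 0.65 in CD18wt and 0.58 in CD18Foxp3 Treg on log2(TPM + 1). The median change over all genes tested was 0.36 and 0.31 on that scale. After TMM scaling the log2 fold change was 0.21 ± 0.23 in CD18wt (adjusted p = 0.481; -0.03 ± 0.16 without unstimulated replicate 3) and 0.22 ± 0.10 in CD18Foxp3 Treg (adjusted p = 0.0936). Egr1 was the only early gene that passed in neither genotype, with or without that library. The fourth EGR gene, Egr4, made up at most 1.28% of the summed EGR TPM in any library. The corepressors Nab1 and Nab2, which EGR factors induce and bind, were at 43.7 to 76.0 TPM and 56.7 to 128 TPM, and of these 3 genes only Nab1, named after its values were seen, passed, lower in each genotype (log2 fold change -0.82 ± 0.12 in CD18wt and -0.66 ± 0.12 in CD18Foxp3 Treg).

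Fos (chr12:85473890-85477273, forward strand) had the largest change of the early genes. Unstimulated CD18wt libraries held 1844, 1545 and 30.3 TPM and unstimulated CD18Foxp3 libraries 562, 1038 and 466 TPM. All stimulated libraries were low, with 17.0, 8.07 and 10.9 TPM in CD18wt and 13.2, 8.87 and 14.9 TPM in CD18Foxp3 Treg. Even the low CD18wt replicate 3 was above every stimulated library. The log2 fold change in CD18Foxp3 Treg was -6.18 ± 0.38 (adjusted p = 3.32e-06), a level 72.3-fold lower. In CD18wt it was -6.96 ± 1.80 (adjusted p = 0.0355) and, without unstimulated replicate 3, -7.54 ± 0.26 (adjusted p = 7.2e-08). Intron reads of Fos were 155, 114 and 147 in unstimulated and 0, 0 and 4 in stimulated CD18Foxp3 libraries, and 365, 221 and 22 in unstimulated and 0, 0 and 1 in stimulated CD18wt libraries, where a count of 0 allows up to 3 reads.

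Jun (chr4:95049034-95052222, reverse strand), the founding JUN subunit, is a gene of 1 exon and has no intron reads. Its TPM were 1013, 793 and 48.3 in unstimulated and 74.6, 41.0 and 47.0 in stimulated CD18wt libraries. In CD18Foxp3 Treg they were 434, 491 and 582 without and 28.8, 58.3 and 45.1 with stimulation. Replicate 3 of unstimulated CD18wt lay within the stimulated range. Jun fell by 3.88 on the log2 scale in CD18Foxp3 Treg (SE 0.24, adjusted p = 3.32e-06), and in CD18wt the log2 fold change was -3.89 ± 1.22 (adjusted p = 0.0609), or -4.43 ± 0.24 without that library (adjusted p = 9.32e-07). Of its exon reads 94.4% were placed uniquely, and those of the other 9 genes all were.

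Junb (chr8:84974484-84978718, reverse strand), the most abundant early gene in all 4 groups and needed for Treg effector function, was at 3423, 3711 and 311 TPM in unstimulated and 753, 767 and 627 TPM in stimulated CD18wt libraries. CD18Foxp3 libraries held 2425, 2416 and 2696 TPM without and 239, 710 and 723 TPM with stimulation. Of the unstimulated libraries, CD18wt replicate 3 alone lay below stimulated ones, and among stimulated libraries CD18Foxp3 replicate 1 was the lowest. The log2 fold change was -2.55 ± 0.34 in CD18Foxp3 (adjusted p = 0.00023), -2.15 ± 0.96 in CD18wt (adjusted p = 0.139) and -2.67 ± 0.16 in CD18wt without replicate 3 (adjusted p = 3.04e-07).

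Fosl2 (FRA2; chr5:32135801-32157842, forward strand) went the other way. It was at 3.09, 4.44 and 2.82 TPM in unstimulated and 31.0, 21.6 and 25.0 TPM in stimulated CD18wt libraries. CD18Foxp3 Treg held 3.27, 3.55 and 3.62 TPM without and 30.04, 29.9 and 36.5 TPM with stimulation. The groups were far apart in both genotypes, with log2 fold changes of 2.49 ± 0.18 (adjusted p = 4.98e-07) and 2.84 ± 0.13 (adjusted p = 1.29e-06). Without CD18wt unstimulated replicate 3, the CD18wt fold changes of the genes that passed with it were 2.41 ± 0.20 for Fosl2, 2.92 ± 0.19 for Nr4a3, 1.57 ± 0.23 for Nr4a2, 1.30 ± 0.19 for Egr2 and 0.98 ± 0.16 for Egr3, and all 5 passed again.

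**Figure D3:**
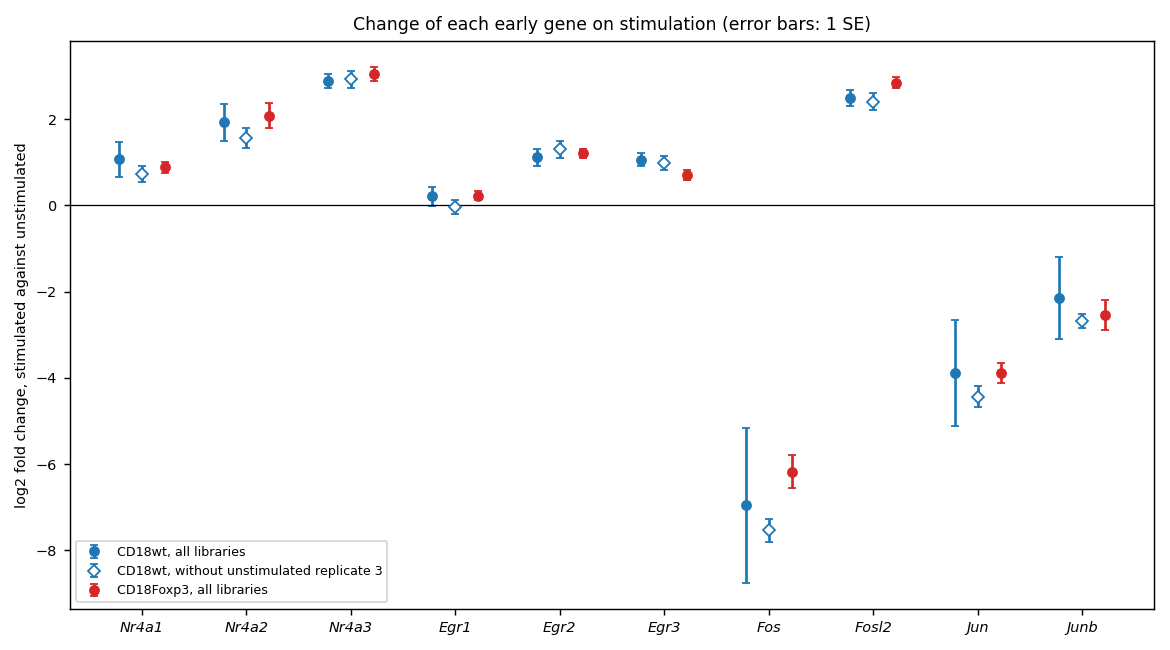
Log2 fold change of stimulated against unstimulated Treg (vertical axis) for each early gene (horizontal axis), with error bars of 1 SE, in CD18wt with all libraries (filled blue), in CD18wt without unstimulated replicate 3 (open blue) and in CD18Foxp3 (red). The NR4A genes, Egr2, Egr3 and Fosl2 lie above 0 and Fos, Jun and Junb below, and the error bars of the last 3 in CD18wt shrink without replicate 3, from 1.80 to 0.26 for Fos.

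The make-up of FOS family mRNA turned over. Fosb, the FOS subunit most like Fos, was at 275, 288 and 2.41 TPM in unstimulated CD18wt libraries, at 84.8 to 149 TPM in unstimulated CD18Foxp3 libraries and at 1.43 to 3.53 TPM in all stimulated libraries. Fosl1 (FRA1) went from 0.188 to 0.866 TPM to between 31.3 and 40.0 TPM, with log2 fold changes of 5.50 ± 0.37 in CD18wt and 6.17 ± 0.37 in CD18Foxp3 Treg (adjusted p = 2.98e-07 and 3.12e-06). Fos and Fosb together made up at least 89.85% of the summed TPM of the 4 FOS genes in every unstimulated library, and Fosl1 and Fosl2 at least 75.46% in every stimulated one. The sum itself was 803 ± 339 TPM (SD, n = 3) in unstimulated and 81.2 ± 10.4 TPM in stimulated CD18Foxp3 Treg. In CD18wt unstimulated replicate 3 the sum was 36.4 TPM, lower than in any stimulated library, but 83.2% of it was Fos as in the other unstimulated libraries. In the JUN family, Junb made up 60.6% to 63.1% of the summed TPM in unstimulated and 43.2% to 59.6% in stimulated CD18Foxp3 Treg, and most of the rest was Jund, which fell by 1.71 on the log2 scale (SE 0.19, adjusted p = 6.39e-05).

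**Figure D4:**
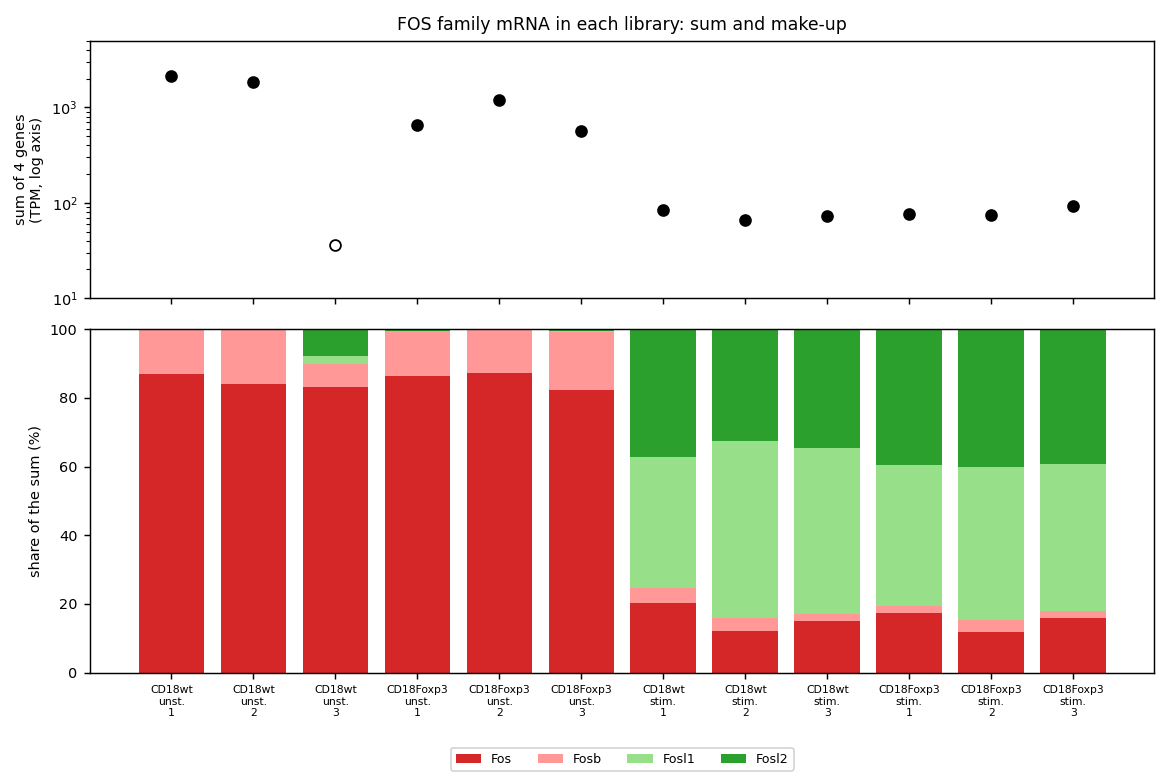
Summed TPM of Fos, Fosb, Fosl1 and Fosl2 (top, log axis) and the share of each gene in that sum in percent (bottom) for each of the 12 libraries (horizontal axis). Unstimulated libraries hold mainly Fos and Fosb, stimulated ones mainly Fosl1 and Fosl2, and CD18wt unstimulated replicate 3 (open circle) has a sum of 36.4 TPM but still mostly Fos.

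Of the 11 other AP-1 family genes, 9 were tested in each genotype, with 3 rises and 1 fall in CD18wt (2 falls without unstimulated replicate 3), and 3 rises and 3 falls in CD18Foxp3 Treg. Over all genes tested, 18.7% rose and 14.9% fell in CD18wt, and 20.9% and 17.6% in CD18Foxp3 Treg. Atf3, a stress-induced partner of JUN, rose from at most 3.72 TPM to between 33.7 and 51.4 TPM, with a log2 fold change of 5.70 ± 0.24 in CD18Foxp3 Treg (adjusted p = 9.03e-07) and 4.18 ± 0.80 in CD18wt (adjusted p = 0.00654). Mafg, a small MAF protein, rose by 1.43 ± 0.15 and 1.39 ± 0.16 (log2, CD18wt and CD18Foxp3). Jdp2, a repressor of AP-1, fell by 2.66 in CD18wt and by 1.54 in CD18Foxp3 Treg. Fosb had log2 fold changes of -6.61 ± 1.97 in CD18wt (adjusted p = 0.0529), -7.20 ± 0.31 without unstimulated replicate 3 (adjusted p = 6.45e-07) and -6.23 ± 0.28 in CD18Foxp3 Treg (adjusted p = 1.19e-06). Batf, which pairs with JUN and IRF4, was at 152 to 334 TPM.

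Of 21 other immediate early genes, all tested, 5 rose and 10 fell in CD18Foxp3 Treg, beside 20.9% and 17.6% of all genes. The rises there are near the share of all genes. In CD18wt Treg 4 rose and 3 fell, which is near the shares of all genes (18.7% and 14.9%), or 3 and 10 without unstimulated replicate 3 (17.7% and 13.5%). Their median log2 fold change was -0.54 (CD18wt) and -0.59 (CD18Foxp3). The genes that fell with Fos included Dusp1, a MAP kinase phosphatase, Zfp36, which speeds the decay of AU-rich mRNAs, and the Krüppel-like factors Klf2 and Klf4. In CD18Foxp3 Treg their log2 fold changes were -4.40 ± 0.18, -3.27 ± 0.13, -3.18 ± 0.16 and -2.83 ± 0.38. In CD18wt that of Dusp1 was -5.17 ± 1.39, which did not pass (adjusted p = 0.0393 by edgeR). Dusp1 held 1525, 1447 and 57.2 TPM in unstimulated CD18wt libraries, thus low in the same library as Fos. Genes that rose included Irf4, a regulator of effector Treg, by 3.67 ± 0.19 and 3.94 ± 0.18, and Ier3 by 3.22 ± 0.87 (adjusted p = 0.015 without CD18wt unstimulated replicate 3) and 3.16 ± 0.48. Myc, which drives growth, rose by 1.87 ± 0.31 in CD18wt and by 1.78 ± 0.14 in CD18Foxp3 Treg, and passed in both.

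Regulators upstream of the early genes were called at or below the share of all genes, which was 33.6% in CD18wt and 38.6% in CD18Foxp3 Treg. Of 10 calcineurin and NFAT genes 2 passed in each genotype, with Nfat5 higher (log2 fold change 1.53 ± 0.24 and 1.48 ± 0.19) and the catalytic subunit Ppp3ca lower (-1.41 ± 0.18 and -1.32 ± 0.12). Of 15 MAP kinase pathway genes 3 passed in CD18wt and 2 in CD18Foxp3 Treg, and of 6 SRF and ternary complex factor genes 2 and 1. Medians of these 3 lists were between -0.29 and 0.11, beside medians of 0.02 and 0.01 over all genes.

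Known targets were also listed. Of 5 genes that NR4A receptors act on in Treg, 1 rose in CD18wt (Il2ra, the high-affinity IL-2 receptor chain, by 2.27 ± 0.16) and 3 in CD18Foxp3 Treg, which were Il2ra (3.13 ± 0.16), the inhibitory receptor Ctla4 (1.94 ± 0.18) and the Treg factor Ikzf2 (0.90 ± 0.15; named after its values were seen). In CD18wt, Ctla4 had a log2 fold change of 1.02 ± 0.36, which did not pass (adjusted p = 0.053 by edgeR). Over all genes 18.7% rose and 14.9% fell in CD18wt, and 20.9% and 17.6% in CD18Foxp3 Treg, so that 1 of 5 in CD18wt is near the share of all genes. Foxp3 itself was at 73.4 to 108 TPM in unstimulated and 133 to 208 TPM in stimulated libraries, but it passed in neither genotype. After TMM scaling its log2 fold change in CD18Foxp3 Treg was 0.53 ± 0.14 (adjusted p = 0.00836 by edgeR), which is 1.44-fold and so under 1.5. Of 12 genes reported to be controlled by Egr2 or Egr3 in T cells, 2 rose and 7 fell in each genotype. The rises were the cell cycle inhibitor Cdkn1a (5.76 ± 0.25 and 5.60 ± 0.22) and Socs1 (1.66 ± 0.32 and 1.94 ± 0.22). The falls included the transcriptional repressor Bcl6 (-2.75 ± 0.25 and -2.28 ± 0.26) and the ubiquitin ligase Rnf128 (-2.08 ± 0.34 and -1.86 ± 0.34). They also included the kinase Dgka (-1.42 ± 0.14 and -1.68 ± 0.11), which dampens receptor signaling. Rnf128 and Dgka, which are tied to T cell anergy, thus fell in the same comparisons in which Egr2 and Egr3 rose. Of 9 heat shock genes 4 rose in CD18wt and 5 in CD18Foxp3 Treg, none fell, and their sum went from 2656 to 3319 TPM to between 6732 and 8701 TPM.

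Genes with the most similar course over the 12 libraries were sought for 4 early genes among 9211 genes with a mean of at least 5 TPM, by the root mean square difference of centered log2 CPM. Closest to Nr4a1 were Dusp5, an ERK phosphatase (difference 0.19), Plk3 (0.21) and Mgme1 (0.21). Closest to Fos were Fosb (0.52), Dusp1 (0.92) and Jun (1.32), so that a fellow early gene was also among the nearest 3. Closest to Jun were Ppp1r15a, which reverses the stress arrest of translation (0.39), Dusp1 (0.52) and Rhob (0.52). For Egr2 they were Hmgn1, Hnrnpab and Hdgf (0.12, 0.13 and 0.14), genes of chromatin and RNA binding. These distances share the libraries and their depth, and the course of Fos and Jun includes the low CD18wt replicate 3.

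Between the genotypes, no early gene differed past the threshold in unstimulated Treg. By edgeR, DESeq2 or limma 0 of 10 passed, and 1 (Egr2) had an unadjusted p under 0.05 by edgeR. Of the 11829 genes tested, 0.135% passed by edgeR. Egr2 was the only early gene whose libraries did not overlap between unstimulated genotypes, beside 15.6% of the genes tested, with a log2 difference (CD18Foxp3 against CD18wt) of -0.30 ± 0.13 (adjusted p = 0.51). That difference was -0.12 ± 0.10 without CD18wt replicate 3. For Fos, Jun and Junb the standard errors were 1.39, 1.07 and 0.92 on the log2 scale, so that differences of several fold were not detectable with that library in the comparison. For Nr4a3, Egr3 and Fosl2, with log2 differences of -0.13 ± 0.11, 0.22 ± 0.12 and -0.02 ± 0.18, the errors were small.

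Without CD18wt unstimulated replicate 3, again 0 of 10 passed (edgeR, 3 with an unadjusted p under 0.05), and 0.363% of 12123 genes did. Jun was then at 1013 and 793 TPM in CD18wt against 434, 491 and 582 TPM in CD18Foxp3 Treg, with a log2 difference of -0.84 ± 0.13 (adjusted p = 0.0253), which missed the adjusted p of 0.01. Junb, at 3423 and 3711 against 2425, 2416 and 2696 TPM, had a log2 difference of -0.50 ± 0.07 (adjusted p = 0.00182), which is a 1.41-fold change and so under 1.5. Fos differed by -1.28 ± 0.47 (adjusted p = 0.412) and Egr1 by -0.23 ± 0.08 (adjusted p = 0.219). The 2 remaining CD18wt libraries lay above all CD18Foxp3 libraries for Fos, Jun, Junb, Egr1 and Egr2. The gap was narrow for Egr1 (105 against at most 104 TPM) and Egr2 (40.6 against at most 40.07 TPM). The share of all genes that did so was not counted, and 2 libraries separate from 3 more easily than 3 do, so no genotype difference is drawn from it. Of the other lists, 4 early genes passed without that library, all lower in CD18Foxp3 Treg and named after their values were seen: Dusp1 (-1.46 ± 0.15, adjusted p = 0.0094), Jund (-0.92 ± 0.08, adjusted p = 4.71e-05), Cd69 (-0.78 ± 0.10, adjusted p = 0.000916) and Btg2 (-0.65 ± 0.10, adjusted p = 0.00376). Their log2 differences with all 3 CD18wt libraries did not pass. With 2 CD18wt libraries, these values rest on the choice of the library left out.

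In stimulated Treg 0 of 10 early genes passed and none had an unadjusted p under 0.05 (edgeR). DESeq2 and limma called none either. Of the 11930 genes tested 0% passed with edgeR, 583 had an unadjusted p under 0.05, and DESeq2 called 22. The deleted gene itself, Itgb2, did not pass here, at 329 to 331 TPM in CD18wt and 131 to 202 TPM in CD18Foxp3 Treg (log2 difference -0.94 ± 0.17, adjusted p = 0.216), so a change of that size was missed at this threshold. The log2 differences were between -0.37 ± 0.35 for Junb and 0.33 ± 0.17 for Fosl2, and the TPM of the 2 genotypes overlapped for all 10, where 9.43% of the genes tested did not overlap. Nr4a1 differed by -0.05 ± 0.17, Nr4a3 by 0.03 ± 0.19, Egr1 by 0.02 ± 0.15 and Egr2 by -0.21 ± 0.18, each less than its error or close to it. The lowest Junb and Jun levels of the stimulated libraries were in CD18Foxp3 replicate 1, at 239 and 28.8 TPM, which also differed most from its fellow replicates over all genes.

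**Figure D5:**
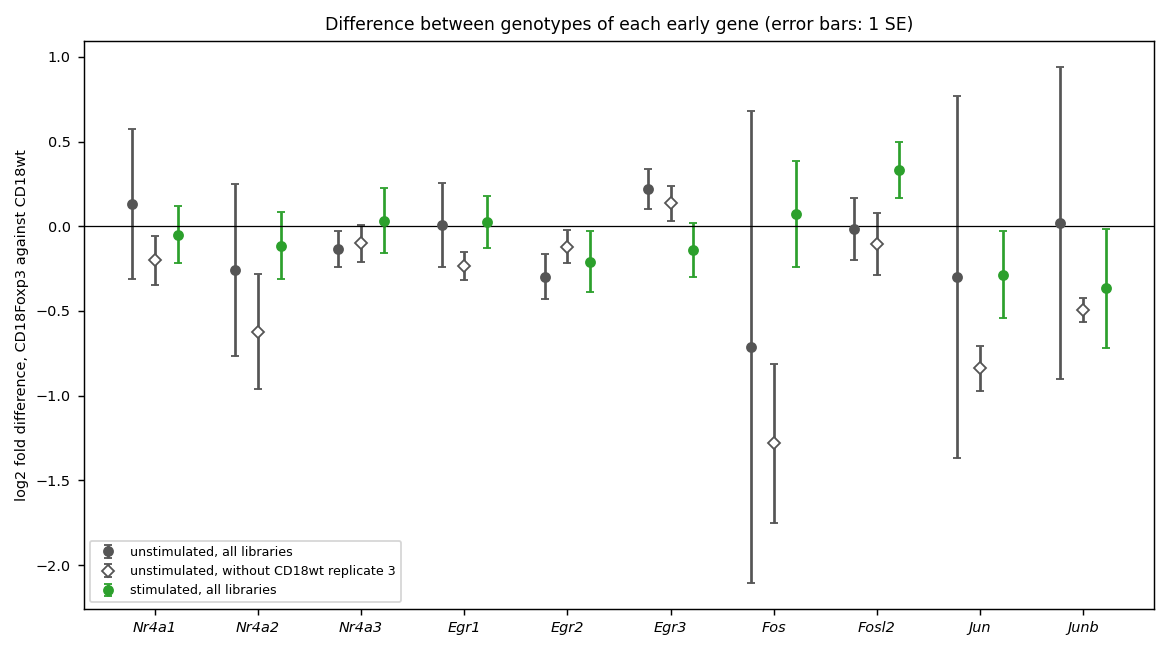
Log2 difference of CD18Foxp3 against CD18wt Treg (vertical axis) for each early gene (horizontal axis), with error bars of 1 SE, in unstimulated Treg with all libraries (filled gray), without CD18wt replicate 3 (open gray) and in stimulated Treg (green). Without replicate 3 the error of Fos, Jun and Junb shrinks and the values lie at -1.28, -0.84 and -0.50, while stimulated values lie between -0.37 and 0.33.

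The response to stimulation was compared between genotypes by the interaction term over all 12 libraries. None of the 10 early genes passed or had an unadjusted p under 0.05 by edgeR, and DESeq2 and limma called none. Of 12636 genes 0% passed with edgeR, 485 had an unadjusted p under 0.05 and DESeq2 called 1. The interaction was -0.36 ± 0.19 (log2) for Egr3, 0.34 ± 0.23 for Fosl2, 0.16 ± 0.23 for Nr4a3 and 0.78 ± 1.54 for Fos. Without CD18wt unstimulated replicate 3 it was 1.35 ± 0.49 for Fos (adjusted p = 0.992), which had the only unadjusted p under 0.05 then. The passing of Nr4a1, Fos, Jun and Junb in CD18Foxp3 but not in CD18wt Treg is thus not shown to be a difference between the genotypes.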

How the data were processed

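Poly(A) RNA of sorted splenic Treg was sequenced as 59-base single reads after 15 PCR cycles, and the reads were mapped by the authors to GRCm38 with CLC Genomics Workbench 20.0. Of the deposited values, the raw counts of exon reads (total and unique), of intron reads and of all gene reads were used, and the TPM, whose decimal commas were read as points. The labels gave group and replicate and call the replicates biological, and the study shows them as individual mice. Whether the unstimulated and stimulated library of 1 number and genotype came from the same mouse is not stated.

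Total exon counts were tested with edgeR 4.0.16 in R 4.3.3 in 5 comparisons (filterByExpr, minimum count 10; TMM; robust quasi-likelihood F-test; Benjamini-Hochberg adjustment over all genes tested). A gene passed with a 1.5-fold change or more and an adjusted p no higher than 0.01. The SE is the log2 fold change divided by the root of F. TPM are given as mean ± SD. Intron RPM were set against each other with exact permutation tests, two-sided, whose smallest p here is 0.1. Replicates differed beyond counting error (chi-square per gene 6.11 to 64.3). Limits for counts of 0 cover counting error only. Alternatives were DESeq2 1.42.0, RLE size factors in edgeR, no filter, unique reads, limma 3.58.1 (log2 of TPM plus 1 or plus 0.1), 1 fit of all 12 libraries, a replicate block, an adjusted p of 0.05, and the omission of each library.

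The 10 early genes and the 15 other lists were chosen with earlier results of these data known. List genes named with a fold change are those past the threshold with the largest changes, at most 6 a list and 30 a comparison. Some of them are also given in the other genotype, where they did not pass or, for Myc, passed outside these limits. Exceptions are marked. Promoters came from RefSeq windows (GRCm38.p6) and exons from GENCODE vM21. Some sequences are not reported here.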

Additional observations from a re-analysis of the deposited data

How the results depend on the processing

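The count of early genes past the threshold was 5 of 10 for stimulation in CD18wt Treg and between 4 and 9 with each library left out, 9 being the count without unstimulated replicate 3. It was 6 at an adjusted p of 0.05, with Fos added. It was 9 of 10 for stimulation in CD18Foxp3 Treg under every alternative but the fit of all 12 libraries (7, without Nr4a1 and Junb). It was 0 in the other 3 comparisons under every alternative run. Fos and Jun also passed in CD18wt Treg with DESeq2 and with all 12 libraries in 1 fit, where CD18wt unstimulated replicate 3 stayed in. The cause was not tested.

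Same-numbered libraries of the 2 cultures deviated from their group means with correlations of -0.09 to 0.10 in CD18wt Treg and of 0.07 to 0.15 in CD18Foxp3 Treg, where each library correlated best with its own number, which is a hint of pairing in that genotype. Within a genotype they also share a number in their deposited names, whose meaning is not stated, so pairing was not assumed. With a replicate block the counts of calls were again 5, 9, 0, 0 and 0. In the 2 genotype comparisons this block joined same-numbered libraries of different mice, with no stated link between them. Their deviations correlated at -0.0018, -0.0051 and 0.085 in unstimulated and at -0.10, -0.057 and -0.13 in stimulated Treg. For differences between unstimulated genotypes, the block turned Fos to 0.20, Jun to 0.28 and Fosl2 to 0.0077, and for the interaction Egr1 to -0.040, Fos to -0.073 and Jun to -0.68.

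Other turns of sign were in values that never passed. limma on log2(TPM + 1) and log2(TPM + 0.1) gave unstimulated genotype differences of 0.54 and 0.55 for Fos, 0.55 and 0.56 for Jun and 0.025 and 0.036 for Fosl2. It gave interactions of -0.028 and -0.047 for Nr4a2, -0.073 and -0.075 for Egr1, -0.47 and -0.48 for Fos and -0.85 and -0.86 for Jun. Without the filter, the interaction of Egr1 was -0.00037. With each library left out, stimulation of Egr1 in CD18wt ranged from -0.032 to 0.42. Unstimulated genotype differences ranged from -0.20 to 0.44 for Nr4a1, -0.68 to 0.21 for Nr4a2, -0.23 to 0.23 for Egr1, -0.11 to 0.19 for Fosl2, -0.84 to 0.26 for Jun and -0.50 to 0.42 for Junb. Stimulated ones ranged from -0.16 to 0.14 for Nr4a1, -0.14 to 0.17 for Nr4a3, -0.049 to 0.15 for Egr1 and -0.11 to 0.39 for Fos. Interactions ranged from -0.50 to 0.14 for Nr4a1, -0.32 to 0.56 for Nr4a2, -0.0065 to 0.30 for Nr4a3, -0.21 to 0.25 for Egr1, -0.10 to 0.31 for Egr2, -0.55 to 0.55 for Jun and -0.79 to 0.12 for Junb. At the depth of CD18wt unstimulated replicate 3, Nr4a2 rested on 37 and Fosl2 on 111 exon reads, which limits their precision there.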
